A study of Mus musculus with 6 samples.

Results

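Heat shock proteins and their DnaJ partners, the chaperones that fold, hold and refold proteins, were followed in liver RNA from Ppara-knockout mice given a TFEB vector. Members were taken by name, as every gene whose single symbol in the platform annotation starts with Hspa, Hspb, Hspd, Hspe, Hsph or Hsp90, or with Dnaja, Dnajb or Dnajc. This gave 61 of the 12393 genes tested, of which 39 were placed in the cytosol and nucleus, 10 in the endoplasmic reticulum (ER), 7 in mitochondria, 4 on vesicles, endosomes or the Golgi, and 1 in no compartment. Compartments were assigned by hand from general knowledge of the proteins, so counts by compartment depend on that choice. The prefix also takes in Hspbp1, which binds an HSP70 protein but is not a heat shock protein itself. Dnajc19 was not analysed here as a single gene, because its 2 probe sets carry 2 symbols. With the prefix Hsp90 the members hold only Hsp90aa1 and Hsp90b1, so Hsp90ab1 is not covered.

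The TFEB-injected group was 3 mice of a C57 background, labelled Ppara KO and 1 month old, with an adenovirus carrying TFEB delivered to the liver; TFEB drives the expression of genes for lysosomes and autophagy. The not-injected group was 3 Ppara KO mice of the same background and age that received no vector. All 6 mice are thus labelled as lacking Ppara, a nuclear receptor for fatty acids that induces their oxidation in liver, and since the control group received no vector, the act of injection, the adenovirus and TFEB cannot be told apart. Each array is total liver RNA of 1 mouse, given as log2 expression levels normalized by the authors.

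The Tfeb probe set gave 7.59 ± 0.12 in TFEB-injected and 7.55 ± 0.07 in not-injected livers (SD, n = 3 each), and the Ppara probe set 9.08 ± 0.04 and 8.95 ± 0.07; neither passed the test. The labels give neither the species of the TFEB carried by the vector nor the deleted part of Ppara, so neither probe set checks them. Array-to-array correlations were 0.995 to 0.998 among TFEB-injected arrays and 0.998 to 0.999 among not-injected arrays, and TFEB-injected replicate 3 correlated least with the not-injected arrays (0.989 with each). The number of arrays limits the precision of all that follows. Hepatocyte markers were bright in all arrays, with a list mean of 14.39 to 14.43 in TFEB-injected and 14.41 to 14.42 in not-injected livers over 6 genes. Of these, Alb, Ttr and Apoa1, for major secreted liver proteins, gave log2 changes of -0.08 ± 0.04, -0.0034 ± 0.04 and -0.01 ± 0.04 and did not pass.

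HSP70 proteins bind unfolded stretches of other proteins and release them as they hydrolyse ATP. DnaJ proteins bring clients to HSP70 and speed up that cycle, HSP110 proteins such as Hsph1 exchange its nucleotide, HSP90 completes the folding of many kinases and receptors, and small heat shock proteins hold clients until HSP70 takes over. The transcription factor HSF1 is known for inducing the cytosolic set when unfolded proteins build up, ATF6 and XBP1 for inducing the ER set, and mitochondria keep an HSP70, Hspa9, and a chaperonin, Hspd1 with its lid Hspe1.

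Promoter sequence is shown for members whose windows hold a textbook stress element. RefSeq promoter windows (GRCm38.p6, 250 bases before to 50 after each start) were found for 50 of the 61 members, with 64 windows in all. Member counts below are of genes, whereas the shares are of windows. A heat shock element of 3 units (GAA, TTC and GAA with 2 free bases between units, on either strand) was found in the windows of 4 of these genes, Hspd1, Hspe1, Hsph1 and Dnajb6, and in 0.603% of all 32851 windows. The ER stress element (CCAAT and CCACG with 9 free bases between them, on either strand) was found in Hspa5, Hsp90b1 and Dnajc3 and in 0.119% of all windows. The motif TCACGTGA, the core of the CLEAR element to which TFEB is known to bind, was in 0 of the 50 genes' windows and in 0.974% of all windows. With a share that low and 64 windows, a count of 0 tells little about these members. A match is a run of letters and no measured binding, and an imperfect element is missed by this search. The Hsph1 match lies after the start site and is not printed. Below, matches are in capitals within 20 flanking bases on each side, 5′ to 3′ on the strand of the gene; Hspd1 and Hspe1 lie head to head and the same 58 bases, chr1:55088039-55088096, lie upstream of both, read on the minus strand for Hspd1 and on the plus strand for Hspe1. In them 2 overlapping matches make 1 run of capitals.
Hspd1: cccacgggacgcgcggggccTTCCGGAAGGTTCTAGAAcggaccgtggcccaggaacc
Hspe1: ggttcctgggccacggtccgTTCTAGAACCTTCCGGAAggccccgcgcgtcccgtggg
Dnajb6 (chr5:29735832-29735884, plus strand): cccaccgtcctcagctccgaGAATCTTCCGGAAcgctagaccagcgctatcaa
Hspa5 (chr2:34772005-34772063, plus strand): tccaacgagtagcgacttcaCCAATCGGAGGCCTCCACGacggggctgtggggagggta
Dnajc3 (chr14:118937807-118937865, plus strand): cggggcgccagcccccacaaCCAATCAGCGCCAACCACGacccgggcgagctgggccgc
Hsp90b1 (chr10:86705513-86705676, minus strand): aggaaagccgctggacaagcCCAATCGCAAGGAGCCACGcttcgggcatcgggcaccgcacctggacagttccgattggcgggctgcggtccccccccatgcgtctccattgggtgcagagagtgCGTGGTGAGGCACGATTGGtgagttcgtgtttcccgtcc

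As a family the chaperones did not move one way. Of the 61 members, 8 rose and 3 fell (limma with Benjamini-Hochberg adjustment over all genes, threshold 0.05), and 50 did not pass. That is 18.0% of the members, against 17.9% of all genes called; 9.99% of all genes rose and 7.92% fell. Of all genes called, 55.8% were higher, and 43.9% after centring each array on its median. The median log2 change, TFEB-injected minus not-injected, was 0.07 over the members and -0.01 over all genes. The extremes of the family were Hspb1, at 0.81, and Dnajc30, at -0.27. Changes described as "rose" or "fell" are those past the threshold, log2 changes are given ± SE, and the plot of changes by compartment shows every member.

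**Figure D1:**
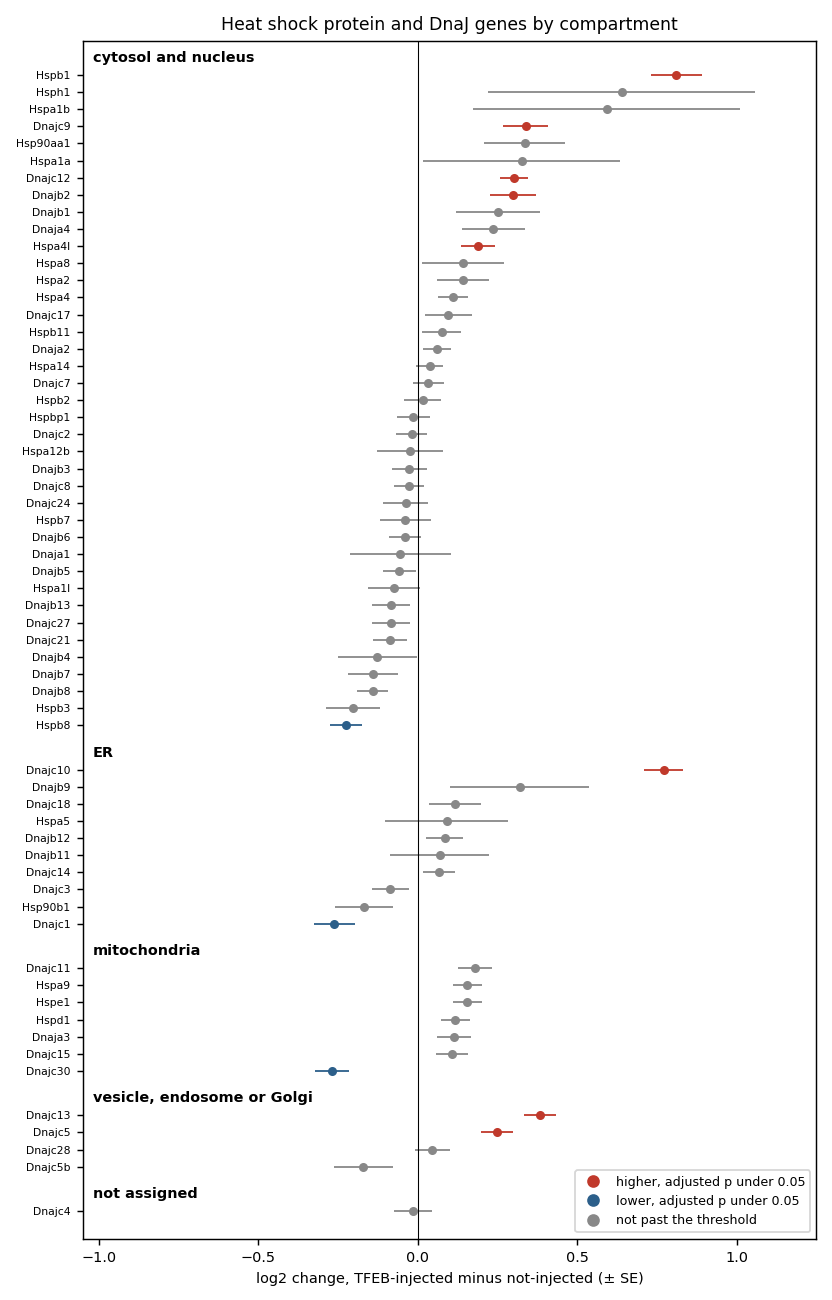
Log2 change (TFEB-injected minus not-injected, horizontal axis, bars ± SE from limma) of all 61 members, listed by compartment and ordered by change; red members rose, blue members fell and grey members did not pass the threshold. Hspb1 and Dnajc10 stand farthest right with short bars, whereas Hsph1 and Hspa1b have changes of 0.64 and 0.59 with wide bars.

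The largest change in the cytosol was that of Hspb1, for the small heat shock protein that keeps denatured proteins in a refoldable state. Its log2 level was 9.22, 9.29 and 9.40 in the 3 TFEB-injected livers, against 8.61, 8.35 and 8.52 in the 3 not-injected livers. The Hspb1 groups did not overlap, and the change was 0.81 ± 0.08, or 1.75-fold (adjusted p = 0.000724 by limma). A second Hspb1 probe set gave 1.28. The call held without any 1 array, with adjusted p up to 0.00590.

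Hspb8, a small heat shock protein that works with the co-chaperone Bag3 in autophagic disposal of misfolded proteins, went the other way. It had 10.93, 10.93 and 10.82 in TFEB-injected livers, against 11.09, 11.12 and 11.14 in not-injected livers, a change of -0.22 ± 0.05. All injected values lay below all not-injected values, but leaving out any 1 not-injected array, or the second TFEB-injected array, ended the call (largest adjusted p 0.0700). The small heat shock genes Hspb3 and Hspb7, typical of muscle, gave -0.20 and -0.04 and did not pass. Of 6 skeletal muscle markers 0 passed in limma, and 0 had an unadjusted p under 0.05; their list mean was 5.40 to 5.54 in TFEB-injected and 5.47 to 5.56 in not-injected livers.

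Among cytosolic and nuclear DnaJ genes, Dnajc9, for a histone chaperone, rose by 0.34 ± 0.07. Dnajc12, for a partner of the aromatic amino acid hydroxylases of liver, rose by 0.30 ± 0.04, with 9.57, 9.50 and 9.50 in TFEB-injected livers and 9.21, 9.23 and 9.22 in not-injected livers. The Dnajc12 groups were separated by more than either spread, and its call held without any 1 array (adjusted p up to 0.0245). Dnajb2, whose product carries ubiquitin-binding motifs and passes clients to the proteasome, rose by 0.30 ± 0.07. Hspa4l, for an HSP110-type exchange factor, rose by 0.19 ± 0.05 with an adjusted p of 0.0493 in limma, close to the threshold, and missed it after cyclic loess (0.0533), median centring (0.0908) and without probe sets of shared sequence (0.0519). Dnajb2 (largest adjusted p 0.103) and Hspa4l (0.170) lost their calls when the first or the second TFEB-injected array or any 1 not-injected array was left out. Dnajc9 missed the threshold when the second or the third not-injected array was left out (largest adjusted p 0.0596).

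Members on vesicles and endosomes gave 2 calls among 4. Dnajc13, for an endosomal protein that steers cargo between recycling and lysosomal degradation, had 9.20, 9.20 and 9.32 in TFEB-injected livers, against 8.85, 8.85 and 8.87 in not-injected livers. The change of 0.38 ± 0.05 (adjusted p = 0.00229 by limma) exceeded the spread in either group and held without any 1 array. Dnajc5, for cysteine string protein of secretory vesicles, rose by 0.25 ± 0.05; of its other 4 probe sets 2 gave -0.07, and the mean of all its probe sets gave 0.09 ± 0.05, which did not pass. Leaving out the second array of either group also ended its call (largest adjusted p 0.0665).

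**Figure D2:**
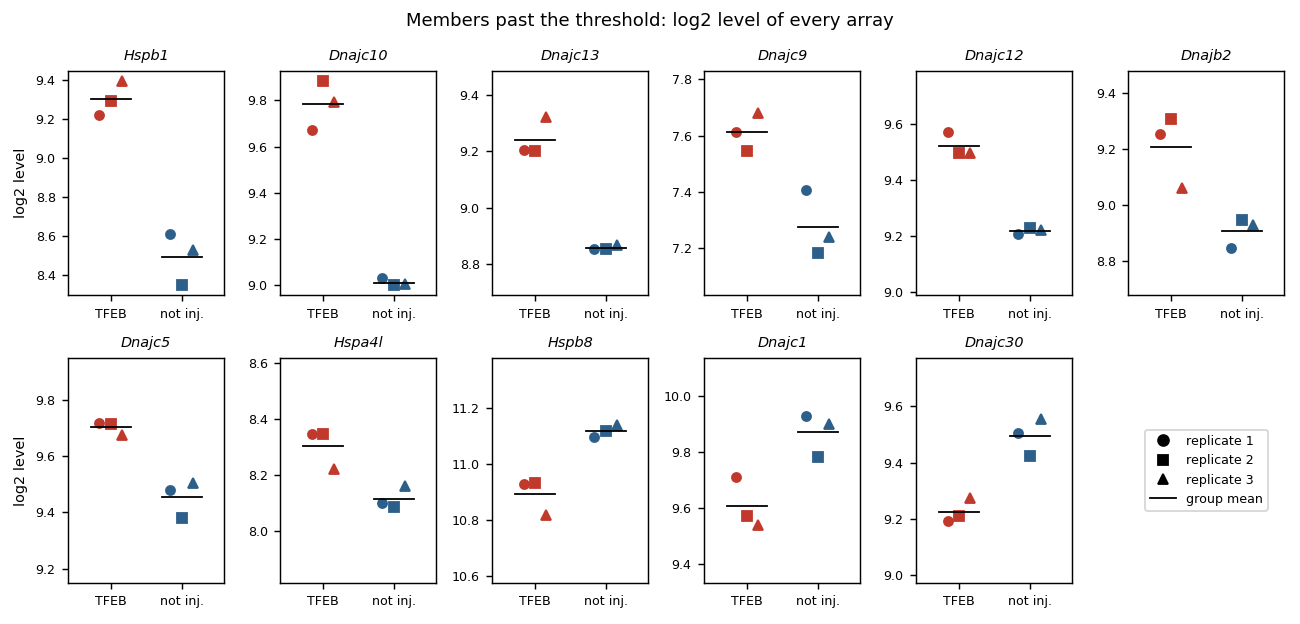
Log2 level (vertical axis, a separate scale for each gene) of the 11 members past the threshold in each TFEB-injected array (red) and each not-injected array (blue); symbols mark the replicate number and lines the group means. In all 11 the 2 groups do not overlap, with 8 higher and 3 lower in TFEB-injected livers.

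Non-overlap alone is common in these data. The TFEB-injected arrays lay above all not-injected arrays in 17 members and below them in 5, against 18.2% and 18.9% of all genes. Among the 17 were 6 of the 7 mitochondrial members.

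In the ER, Dnajc10 had the largest change. It encodes ERdj5, a disulfide reductase that unfolds proteins for export from the ER and degradation. Its level was 9.672, 9.885 and 9.792 in TFEB-injected livers, against 9.030, 8.9998 and 9.004 in not-injected livers. The change was 0.77 ± 0.06, or 1.71-fold (adjusted p = 0.000295 by limma), its other 2 probe sets gave 0.55 and 0.53, and the call held without any 1 array (adjusted p up to 0.00340). Dnajc1, for an ER membrane DnaJ protein that touches the ribosome, fell by 0.26 on the log2 scale (SE 0.07); 1 of its other probe sets, at a dim 3.67, gave 0.09, and the mean of its probe sets (-0.10 ± 0.04) did not pass. Its call also ended when the first or the third not-injected array, or the second or the third TFEB-injected one, was left out (largest adjusted p 0.116). The other 8 ER members did not pass.

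Hspa5 encodes BiP, the HSP70 of the ER lumen and a standard marker of the unfolded protein response. Its values were 13.87, 13.58 and 13.00 in TFEB-injected livers, against 13.40, 13.38 and 13.40 in not-injected livers. TFEB-injected replicates 1 and 2 lay above every not-injected array and TFEB-injected replicate 3 below every one. The mean change was 0.09 ± 0.19 (adjusted p = 0.799 by limma). It was -0.10 without TFEB-injected replicate 1 and 0.33 without TFEB-injected replicate 3 (adjusted p = 0.0373 by limma). Leaving out the lowest injected array raises the mean by construction, so that pass is no separate support for a change.

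The mitochondrial members had small shifts and tight groups. Hspd1 had 12.66, 12.62 and 12.57 in TFEB-injected livers, against 12.51, 12.50 and 12.49 in not-injected livers, a change of 0.12 ± 0.04. Its lid gene Hspe1 gave 0.16 ± 0.05, the mitochondrial HSP70 gene Hspa9 0.16 ± 0.05, Dnajc11, for a protein of the cristae junction complex, 0.18 ± 0.05, Dnaja3 0.11 ± 0.05 and Dnajc15, for a protein of the import motor, 0.11 ± 0.05. In these 6 genes all TFEB-injected values lay above all not-injected values, yet 0 passed in limma; 4 had an unadjusted p under 0.05, and adjusted p ranged from 0.0546 for Hspe1 to 0.186 for Dnaja3. Hspa9 and Hspe1 passed after cyclic loess, when 17.9% of all genes did, the same share as with the main settings. Both passed together with Hspd1 with a trend and robust prior, when 20.3% of all genes passed. They also did so without genes below the median level, where Dnajc11 passed too. In that setting 36.5% of the 6197 genes left passed. Without TFEB-injected replicate 3, Hspa9 and Dnajc11 passed, as did 19.4% of all genes. The mean of the Hspa9 probe sets gave 0.02 ± 0.04. Besides the one described, they gave 0.18, -0.24 and -0.01, the last 2 at dim levels of 6.10 and 5.27. The 0.18 and the -0.24 passed in a limma fit of all probe sets (adjusted p = 0.0356 and 0.0210).

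The remaining mitochondrial member, Dnajc30, for a protein linked to respiratory chain assembly, fell. It had 9.19, 9.21 and 9.28 in TFEB-injected livers, against 9.51, 9.43 and 9.55 in not-injected livers, a change of -0.27 ± 0.05 (adjusted p = 0.0128 by limma). The groups did not overlap, but the call ended when the first not-injected or the second TFEB-injected array was left out (largest adjusted p 0.0590).

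**Figure D3:**
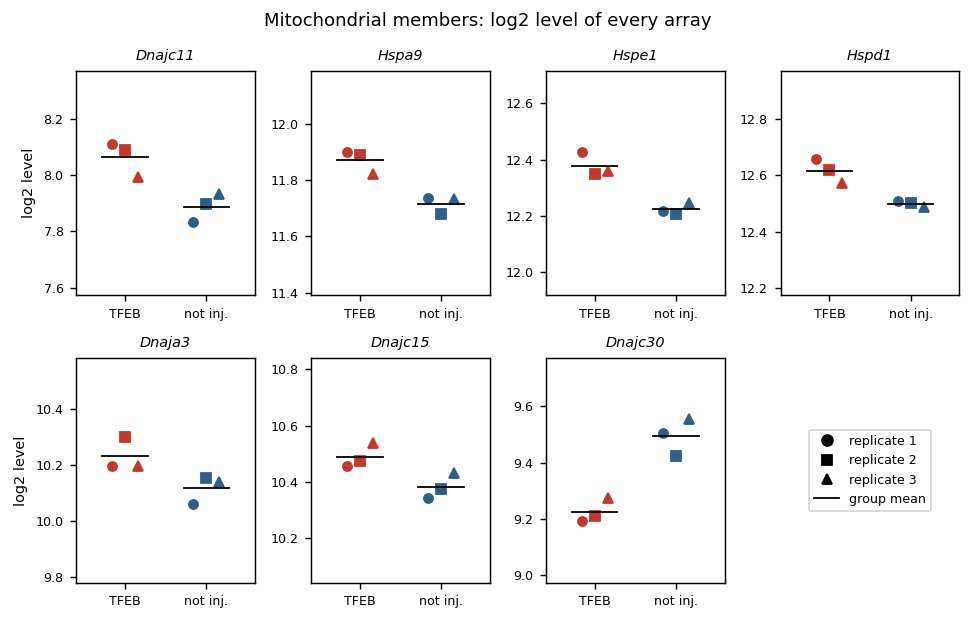
Log2 level (vertical axis, a separate scale for each gene) of the 7 mitochondrial members in each TFEB-injected array (red) and each not-injected array (blue); symbols mark the replicate number and lines the group means. In 6 genes all TFEB-injected arrays lie above all not-injected arrays by small steps, and in Dnajc30 they lie below.

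The widest movement in the family was among the injected mice themselves. In 11 members the SD of the 3 TFEB-injected arrays, 0.28 to 0.98, exceeded 0.22, the 95th percentile of that SD over all genes, a level that 5% of all genes exceed; the SD of the not-injected arrays in the same 11 members was 0.01 to 0.10. These members, picked after their values were seen and described here with no test, were Hspa1a, Hspa1b, Hspa8, Hsph1, Hsp90aa1, Dnaja1, Dnajb1 and Dnajb4 of the cytosol and Hspa5, Dnajb9 and Dnajb11 of the ER. Dnajb4, at 0.28, was just inside that level and Hsp90b1, at 0.19, just outside. Each SD is that of the gene's probe set with the highest mean, and other probe sets of a gene can differ. The injected arrays varied more over all genes too, with a median ratio of injected to not-injected SD of 1.24. The ratio was 2.76 to 63.3 in these 11, but they were picked for a high injected SD, so high ratios follow from that choice. These ratios were not set against those of other genes with an injected SD that wide.

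The heat-inducible HSP70 gene Hspa1b and Hsph1 had the widest spread, each with an injected SD of 0.98. Hspa1b values were 11.70, 11.24 and 9.82 in TFEB-injected livers, against 10.31, 10.36 and 10.31 in not-injected livers. Injected replicate 1 was thus more than 1 log2 unit above the not-injected livers, and injected replicate 3 was below them. The mean change of 0.59 ± 0.42 did not pass (adjusted p = 0.388 by limma). Hspa1a, a near-identical copy whose signal cannot be fully separated from that of Hspa1b, had 6.30, 5.47 and 4.87 in TFEB-injected livers, against 5.25, 5.20 and 5.20 in not-injected livers. Which of the 2 copies gave the signal is therefore uncertain.

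Hsph1, for the exchange factor HSP105, had 10.49, 9.95 and 8.59 in TFEB-injected livers, against 9.01, 9.05 and 9.06 in not-injected livers, and its other probe set gave 8.90, 8.32 and 6.71 in TFEB-injected livers. The constitutive HSP70 gene Hspa8 had 13.46, 13.27 and 12.90 in TFEB-injected livers, against 13.10, 13.08 and 13.03 in not-injected livers. Dnaja1, for a farnesylated partner of Hspa8, had 12.59, 12.30 and 11.87 in TFEB-injected livers, against 12.30, 12.30 and 12.32 in not-injected livers. By all of these probe sets, injected replicate 1 was above and injected replicate 3 below every not-injected array. A dim Hspa8 probe set, at 6.52, was instead lower in all 3 injected arrays. It gave -0.47 (adjusted p = 0.0205 in a limma fit of all probe sets).

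The other cytosolic genes of the 11 did not all reach below the not-injected arrays. The stress-inducible HSP90 gene Hsp90aa1 had 12.62, 12.43 and 12.07 in TFEB-injected livers, against 12.05, 12.03 and 12.04 in not-injected livers, so that even its lowest injected value stayed above the not-injected ones. Dnajb1, for the main inducible DnaJ protein HSP40, had 9.534, 9.263 and 8.975 in TFEB-injected livers, against 8.997, 8.910 and 9.112 in not-injected livers. Dnajb4 had 9.74, 9.62 and 9.21 in TFEB-injected livers, against 9.63, 9.66 and 9.66 in not-injected livers, with the low value of injected replicate 3 as its main departure.

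In the ER, Dnajb9, for ERdj4, a BiP partner that holds the stress sensor Ern1 in check, had 12.05, 11.70 and 11.06 in TFEB-injected livers, against 11.30, 11.31 and 11.23 in not-injected livers. Dnajb11, for ERdj3, had 10.43, 10.22 and 9.74 in TFEB-injected livers, against 10.04, 10.10 and 10.05 in not-injected livers. Both followed Hspa5, high in injected replicate 1 and lowest in injected replicate 3. The ER HSP90 gene Hsp90b1 was low in injected replicate 3 (13.13, 13.02 and 12.76 in TFEB-injected livers, against 13.18, 13.09 and 13.16 in not-injected livers). By this probe set it was not high in injected replicate 1. Its other probe set had 11.82, 11.49 and 10.85 in TFEB-injected livers, against 11.69, 11.53 and 11.65 in not-injected livers. There injected replicate 1 was above every not-injected array.

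**Figure D4:**
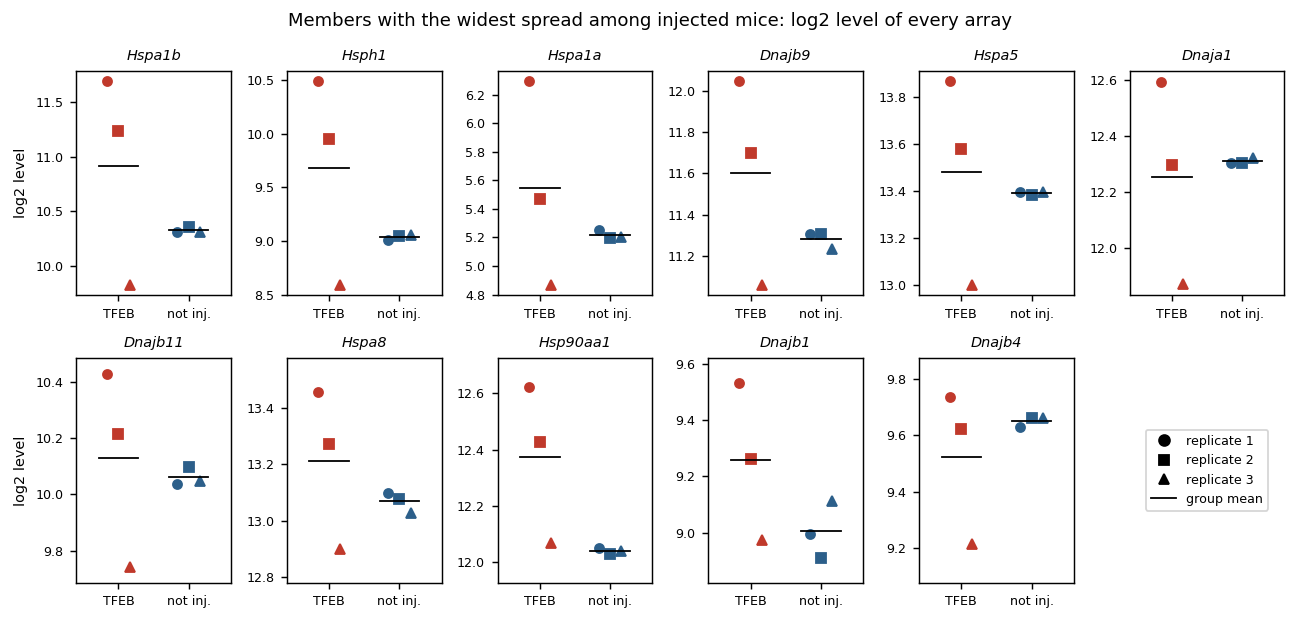
Log2 level (vertical axis, a separate scale for each gene) of the 11 members with a TFEB-injected SD above the 95th percentile of all genes, in each TFEB-injected array (red) and each not-injected array (blue); symbols mark the replicate number and lines the group means. In every panel injected replicate 1 (circle) is highest and injected replicate 3 (triangle) lowest of the injected mice, while the 3 not-injected arrays sit close together.

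All 11 were highest in injected replicate 1 and lowest in injected replicate 3, as were 298 of the 620 genes (48.1%) with an injected SD that wide and 24.3% of all genes. Injected replicate 1 was above every not-injected array in 11 of the 11 and injected replicate 2 in 9, whereas injected replicate 3 was below every one in 9. Such counts follow in part from picking the 11 for a wide injected spread. The shares among the 620 genes as wide, or among all genes, were not computed. The median difference from the not-injected mean was 0.53, 0.25 and -0.35 in TFEB-injected replicates 1, 2 and 3. In the whole family 14 of 61 members (23.0%) reached both above and below all not-injected arrays, against 15.2% of all genes; this difference was not tested. In the other 50 members the injected SD was 0.01 to 0.19, with a median of 0.06 against 0.05 in not-injected livers. This holds for the probe set with the highest mean of each gene. Some of their other probe sets spread more, in the same order of mice. A Dnajc3 probe set had 11.62, 11.38 and 10.88 in TFEB-injected livers, against 11.54, 11.56 and 11.61 in not-injected livers. An Hspa4 probe set had 10.58, 10.40 and 10.06, against 10.42, 10.45 and 10.42. None of the 7 mitochondrial members was among the 11. Promoter windows were found for 9 of the 11, of which 1, Hsph1, held the heat shock element and 1, Hspa5, the ER stress element; among the 41 other members with windows these counts were 3 and 2. Whether these elements have a part in the spread was not tested.

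**Figure D5:**
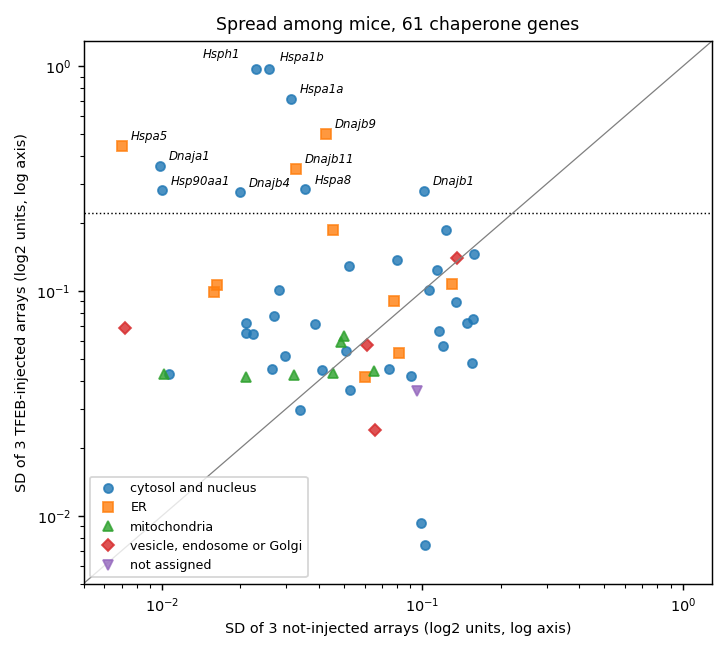
SD of the 3 TFEB-injected arrays (vertical log axis) against SD of the 3 not-injected arrays (horizontal log axis) for the 61 members, in log2 units, with symbols by compartment; the dotted line is the 95th percentile of the injected SD over all genes, 0.22, and the grey line marks equal SDs. The 11 named genes lie above the dotted line, with not-injected SDs of 0.10 or less, and the mitochondrial members lie well below it.

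Of the arrays left out in turn, injected replicate 3 moved the count of calls most. Without it, 18 members rose and 3 fell, against 10.8% and 8.59% of all genes, and 10 of the 11 calls of the full comparison were among these. Hspa1b then gave 1.14 ± 0.12 (adjusted p = 0.00159 by limma), Hsph1 1.18 ± 0.14, Dnajb9 0.59 ± 0.10, Hsp90aa1 0.49 ± 0.07, Dnajb1 0.39 ± 0.10, Hspa8 0.30 ± 0.07 and Dnajb11 0.26 ± 0.07. Hspa1a (0.66 ± 0.21, adjusted p = 0.0745 by limma), Dnaja1 (0.14 ± 0.09) and Dnajb4 (0.03 ± 0.05) did not pass, and Dnaja1 and Dnajb4 turned from a negative change. Injected replicate 3 was the lowest injected array in all 11 widely spread members, so leaving it out raises their mean by construction. Their passing without it is thus no separate support for a change. Without injected replicate 2, 5 members rose and 0 fell in limma, while 9.92% of all genes passed. Without not-injected replicates 1, 2 and 3 in turn, 6, 4 and 5 members rose and 0, 2 and 2 fell. Of all genes 10.3%, 10.9% and 11.7% passed in these fits, so calls became fewer over all genes too. Without injected replicate 1, 6 members rose, 3 fell, and Hspa1a and Dnajb11 gave -0.05 and -0.08, while 17.2% of all genes passed.

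Genes that work with these chaperones were taken from 4 lists. Of 19 measured HSF1-related factors and co-chaperones of HSP70 and HSP90, 1 rose and 2 fell, with a median of 0.04. Sugt1, an HSP90 co-chaperone, rose by 0.20 ± 0.05, whereas the small heat shock gene Cryab (-0.25 ± 0.05) and Fkbp5 (-0.23 ± 0.05), for an HSP90-bound immunophilin known as a glucocorticoid target, fell. The list held 4 genes with an injected SD above the same level, named for that after their values were seen. The HSP70 exchange factor gene Bag3 had 10.06, 9.78 and 9.22 in TFEB-injected livers, against a not-injected mean of 9.52. Chordc1 had 10.55, 10.22 and 9.72 against 9.82, Stip1, which links HSP70 to HSP90, had 8.73, 8.38 and 8.02 against 8.34, and Fkbp4 had 9.25, 9.07 and 8.78 against 9.16. All 4 had injected replicate 1 above and injected replicate 3 below the not-injected mean. Without TFEB-injected replicate 3, 7 genes of the list passed, and without TFEB-injected replicate 2 or not-injected replicate 3, 0 did. Of all genes 19.4%, 9.92% and 11.7% passed in these fits.

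Of 32 ER folding and unfolded protein response genes, 5 rose and 2 fell, with a median of -0.03. Eif2ak3, for the stress sensor PERK, rose by 0.94 ± 0.05 (adjusted p = 7.96e-05 by limma) and Ddit3, for the stress factor CHOP, by 0.37 ± 0.06. Derl2 (-0.30 ± 0.06), for a protein of the ER exit channel, and Sil1 (-0.26 ± 0.05), for an exchange factor of BiP, fell. Eif2ak3 had 8.935, 9.003 and 9.068 in TFEB-injected livers, against a not-injected mean of 8.06, without the spread of Hspa5. The list held 8 genes with an injected SD above the same level, of which 7 were highest in injected replicate 1 and lowest in injected replicate 3. Creld2 had 10.61, 10.04 and 8.51 in TFEB-injected livers against a not-injected mean of 9.23, and the secreted ER stress protein gene Manf had 11.95, 11.55 and 10.44 against 10.99. Hyou1 had 9.95, 9.69 and 9.02 against 9.82, and Ero1b, with 10.61, 10.37 and 9.76 against 10.69, was below the not-injected mean in all 3 injected mice. Derl3 went the other way, with 7.61, 7.64 and 8.11 against 7.68. These genes were named after their values were seen.

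Of 16 measured mitochondrial protease and chaperone cofactor genes, 4 rose and 0 fell (limma; 6 and 0 at an unadjusted p under 0.05), with a median of 0.06. Grpel2, for a nucleotide exchange factor of mitochondrial HSP70, had 9.51, 9.90 and 10.23 in TFEB-injected livers against a not-injected mean of 8.22. Its change of 1.65 ± 0.16 (adjusted p = 0.000649 by limma) was larger than that of any chaperone member. The list held 2 genes with an injected SD above the same level, Grpel2 and Hscb. Hscb had 7.34, 7.90 and 8.06 against 7.46. Of these 2, 0 were highest in injected replicate 1 and lowest in injected replicate 3, and both had the reverse order. The protease gene Afg3l2 rose by 0.35 ± 0.05. Of 12 cytosolic chaperonin and prefoldin genes 0 passed in limma, with 1 at an unadjusted p under 0.05, Cct7 (-0.16 ± 0.06); their median was -0.00.

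Markers of other liver cells moved in part with the groups. Since the RNA is of whole liver, a changed number of cells of a type and a changed amount of RNA per cell cannot be told apart. Of 10 macrophage and Kupffer cell markers 7 rose, and the log2 of their summed signal was 13.37 to 13.65 in TFEB-injected and 12.97 to 13.02 in not-injected livers. Their median difference from the not-injected mean was 0.62, 0.52 and 0.32 in TFEB-injected replicates 1, 2 and 3. Of 8 endothelial markers 2 rose, Stab2 (1.42) and Lyve1 (0.89), and of the 6 others 5 had a negative change, with a list median of -0.02. The log2 of the summed endothelial signal was 11.95 to 12.19 in TFEB-injected and 11.73 to 11.81 in not-injected livers. The median difference of these markers from the not-injected mean came to 0.16 in the first TFEB-injected mouse, 0.0073 in the second and -0.16 in the third. This falling order was not particular to endothelial markers. Macrophage, hepatocyte (0.0041, -0.0049 and -0.016) and stellate (-0.07, -0.10 and -0.13) markers had it too. So did the co-chaperone, chaperonin and ER lists. The mitochondrial, lymphocyte, neutrophil, muscle and erythroid lists did not. The part of these cells in the changes of Hspb1, Dnajc10 and the 11 widely spread members was not tested.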

How the data were processed

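Biotin-labelled RNA of 6 livers was measured on arrays. The authors summarised probes with RMA (affy), per the submitters' processing notes, whose versions were not stated. Each deposited value is a log2 level of 1 probe set. RMA equalises the distributions of the arrays, which hides overall shifts in RNA, and compresses changes of dim genes. Of 22690 probe sets, 64 were controls; 20393 had 1 symbol, 691 several and 1606 none. The 20380 with 1 symbol and no control stood for 12393 genes, each represented by its probe set with the highest mean over the arrays. In 15 members at least 1 other probe set changed in the opposite direction. These were 19 probe sets with a median level of 6.10, of which 3 passed in a limma fit of all probe sets. All 61 members' symbols matched the RefSeq table.

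TFEB-injected and not-injected arrays were compared with limma 3.58.1 in R 4.3.3 (lmFit, eBayes, Benjamini-Hochberg over all genes, threshold 0.05). Nothing in the labels names separate batches. On simulated data for this comparison, with 200 of 12393 genes changed by a log2 change of 0.5, 82.5% were recovered with 10 unchanged genes called. At a change of 1, 96.5% were recovered with 15 called. The simulation drew genes independently and gave both groups the same spread for each gene. It therefore does not cover a spread that is wide only among injected mice or shared by many genes. Levels of different probe sets do not measure relative abundance. They served to choose the probe set of each gene and which members to describe. They also entered the list means and the summed signals, and bright probe sets weigh most in such sums. The deposited values hold no detection calls. Members, hand-assigned compartments, lists and tests were chosen with earlier results of these data known. Any member could be named; per-array values were set for called members with an absolute log2 change of at least 0.5 and for the member with the highest mean signal in each of 3 compartments, and further ones were added after their values were seen. Of each list the 2 called genes with the smallest p in each direction were named, or the 1 with the smallest p. Markers of stellate cells, lymphocytes, neutrophils and erythroid cells gave 1 rise and 2 falls of 7, 0 of 7 (limma; 1 up and 1 down at an unadjusted p under 0.05), 1 rise of 4 and 1 fall of 3. Plots used matplotlib 3.10.9 and Python 3.11.15.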

Additional observations from a re-analysis of the deposited data

How the results depend on the processing

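Dnajc10, Hspb1, Dnajc12 and Dnajc13 kept their direction and their call under all 14 alternatives. With 1 array left out at a time, 4 to 18 members rose and 0 to 3 fell (8 and 3 with all arrays), while 9.92% to 19.4% of all genes passed. By compartment, 2 to 10 rose and 0 to 2 fell in the cytosol, 1 to 4 rose and 0 to 1 fell in the ER, and 0 to 2 rose and 0 to 1 fell in mitochondria. Of the lists, 0 to 7 co-chaperone genes, 2 to 11 ER genes, 4 to 5 mitochondrial genes and 0 to 0 chaperonin genes passed. The 18 came without TFEB-injected replicate 3 and the 4 without not-injected replicate 2. Without TFEB-injected replicate 1, Hspa5 (-0.10), Dnajb11 (-0.081) and Hspa1a (-0.050) turned negative, and without TFEB-injected replicate 3, Dnaja1 (0.14) and Dnajb4 (0.029) turned positive; the log2 changes of these 5 genes across left-out arrays spanned -0.10 to 0.33, -0.081 to 0.26, -0.050 to 0.66, -0.22 to 0.14 and -0.23 to 0.029. With array weights, a fit that stopped before convergence and gave TFEB-injected replicate 2 a weight of 16.3, 47.2% of all genes passed, with 25 members higher and 8 lower, 15 and 5 in the cytosol, 2 higher in the ER, 6 higher in mitochondria, and 9 co-chaperone, 5 chaperonin, 19 ER and 8 mitochondrial list genes. Mitochondrial members higher were 2 after cyclic loess, 3 with a trend and robust prior and 4 without genes below the median level, against 0 with the main settings. The shares of all tested genes that passed were 17.9%, 20.3% and 36.5% in that order, against 17.9% with the main settings. Without genes below the median level, 12 members rose in all. Averaging probe sets left 0 ER members lower and 1 co-chaperone gene, and median centring gave 2 cytosolic members lower. Of all genes 17.2% and 19.5% passed in these fits. The labels do not say whether the replicate numbers pair the mice. The correlations of same-numbered deviations were 0.01, -0.13 and -0.11, which show no pairing but cannot exclude one. With the replicate block, 5 members rose and 2 fell, 3 rose and 0 fell in the cytosol, and 0 co-chaperone genes passed. Of all genes 12.4% passed with that block. Apart from the effects of fewer arrays or genes, the cause was not tested. Members near the array's dim end, such as Hspa1a, are limited in precision by their signal, and 3 arrays a group limit all of them.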
